A study of Mus musculus with 94 samples.

Results

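The macrophage and tubule compartments of the same kidney regions were compared in mice given entospletinib, at day 14 of ischemia-reperfusion injury (IRI). The material consisted of 16 segments, 8 IBA1 segments and 8 PanCK segments, taken from 8 regions of interest (ROIs) among the 94 segments of the whole series. A pair was formed from the IBA1 and the PanCK segment that carried the same ROI number in the same section, and a PanCK segment holding under 200000 counts was left out, which removed 1 segment. Sections E1 and E2 each contributed 2 medullary and 2 cortical ROIs.

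The series profiled fixed, paraffin-embedded kidney sections of male C57BL/6 mice with the GeoMx digital spatial profiler and its mouse whole transcriptome probe panel. Ischemia was unilateral and imposed on the left kidney, and the mice received the SYK inhibitor entospletinib or vehicle (DMSO) before injury and, in the groups killed later than day 1, repeatedly afterwards. Kidneys were taken at days 1, 7 and 14, and uninjured kidneys (contralateral, or from healthy mice) served as controls, which gave 7 groups of 2 sections each. Entospletinib day 14 was compared with vehicle day 14, vehicle day 1 and the uninjured control. Vehicle day 7 and entospletinib days 1 and 7 entered the shared estimate of the spread and the description of count shares. All mice were wild type, and the age of the mice was not given in the sources used here. The prefixes E1 and E2 recur in all 7 groups, so a prefix within a group was read as 1 mouse, which the labels do not state in words. What a prefix shares between groups is not given, and its part in the comparisons between groups was not tested. ROIs had been placed by their staining, away from glomeruli, so that the stains that defined a segment are no result of the comparison.

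Macrophages are phagocytes of the immune system that live in the renal interstitium between the tubules, where they clear debris, release cytokines and take part in both repair and scarring. IBA1 is a calcium-binding protein of the macrophage lineage and is widely used as its stain. The tubular epithelium reabsorbs solutes from the filtrate. It is the compartment most exposed to loss of blood flow, and it stains for cytokeratins (PanCK) and, in the proximal tubule, for CD10. SYK is a tyrosine kinase of leukocytes that relays signals from immune receptors, and entospletinib blocks its activity. In a spatial segment all RNA under the mask is counted together, so fewer cells of a type and less RNA per cell cannot be told apart.

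Depth differed strongly between the compartments. IBA1 segments held from 58579 to 220585 counts with a median of 160578, and PanCK segments from 4136936 to 8541839 with a median of 5579539. Within a pair the PanCK segment held from 27.4 to 146 times as many counts as its IBA1 partner. Every PanCK segment had a count for all 20175 probes, whereas IBA1 segments had a count for 15570 to 19849 of them, and the median probe had 2 to 6 counts in an IBA1 segment. The part of depth in the precision of each comparison was not tested. Counts were scarcest in the IBA1 segments. The shallowest of these, medullary ROI 020 of section E2, was paired with the deepest PanCK segment.

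**Figure D1:**
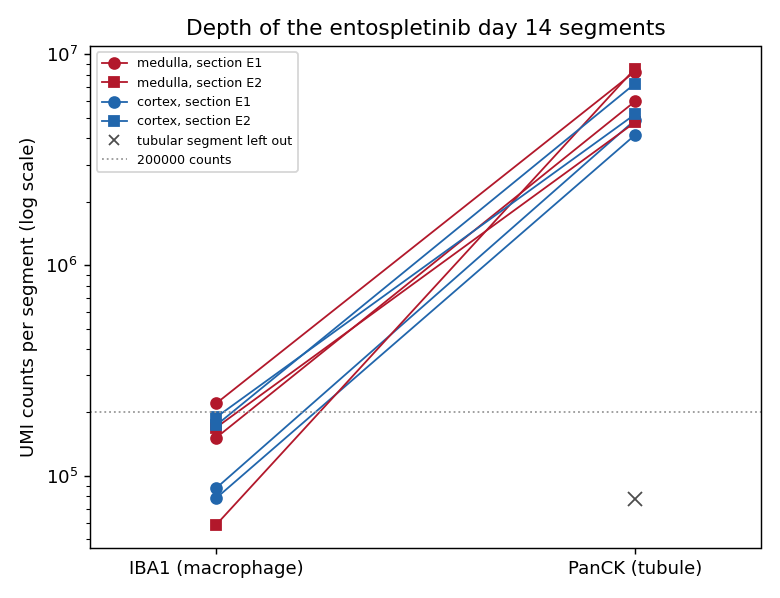
UMI counts per segment (log scale) in the 8 pairs of entospletinib day 14, with each line joining the IBA1 and the PanCK segment of an ROI, coloured by region and with the marker shape giving the section. The 8 PanCK segments used lie between 4136936 and 8541839 counts and the 8 IBA1 segments between 58579 and 220585; the cross is the PanCK segment of 77621 counts that was left out.

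The files identify each probe by a panel code and do not pair the codes with gene names or sequences, so probes, any control probes of the panel included, are described by their values and only 4 are named. For the same reason the IBA1 and PanCK labels could not be checked against defining genes such as those for macrophage or proximal tubule proteins. Of 20175 probes, 14687 reached a summed count of 20 over the 8 IBA1 segments and were tested, and the other 5488 were not. This filter looked at the IBA1 side alone. Just inside it, 2434 probes had sums of 20 to 24, of which 3 were called higher and 13 lower in IBA1; just outside it, 2868 had sums of 15 to 19.

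To ask which transcripts separated macrophage from tubule segments, counts were summed over the ROIs of each section and compartment and compared with edgeR's quasi-likelihood test, with the section as a block. In the IBA1 segments 678 probes were higher and 323 were lower than in the PanCK segments of the same sections (adjusted p under 0.05 and a log2 fold change past 1 in size, n = 2 sections), which was 4.62% and 2.20% of the probes tested. The lower calls depended on the settings. With plain totals as library sizes, limma on the 8 paired differences called 655 probes higher and 4 lower, so test and scaling changed together there. Without the section block, edgeR called 613 higher and 152 lower. On the adjusted p alone, edgeR gave 1191 probes higher and 1263 lower under upper quartile scaling, which centres the folds near 0. The median log2 fold change of the 678 probes was 1.40 (interquartile range 1.17 to 1.81), and it reached 4.97. For the 323 probes it was -1.18 (interquartile range -1.32 to -1.07), and the lowest was -2.20. The median over all probes tested was -0.01, and the median standard error was 0.25. In all, 126 probes were past a log2 fold change of 2 toward macrophages and 3 toward tubules. The filter on the IBA1 sum could remove probes far lower in IBA1 but not those far higher, so these sizes cannot be compared between directions; without the filter 633 probes were called higher and 460 lower.

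The balance of the calls depended on the scaling. With plain library totals in place of upper quartile factors, the median of all probes moved to 0.16, and 951 probes were called higher and 156 lower, a share of 85.9% higher against 67.7%. Of the reported lists, 677 of 678 and 156 of 323 probes were still called under that scaling. Without section E2 the calls fell to 405 higher and 169 lower, and without section E1 they were 785 higher and 581 lower, the remaining section then being assumed to vary like those of the other groups.

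**Figure D2:**
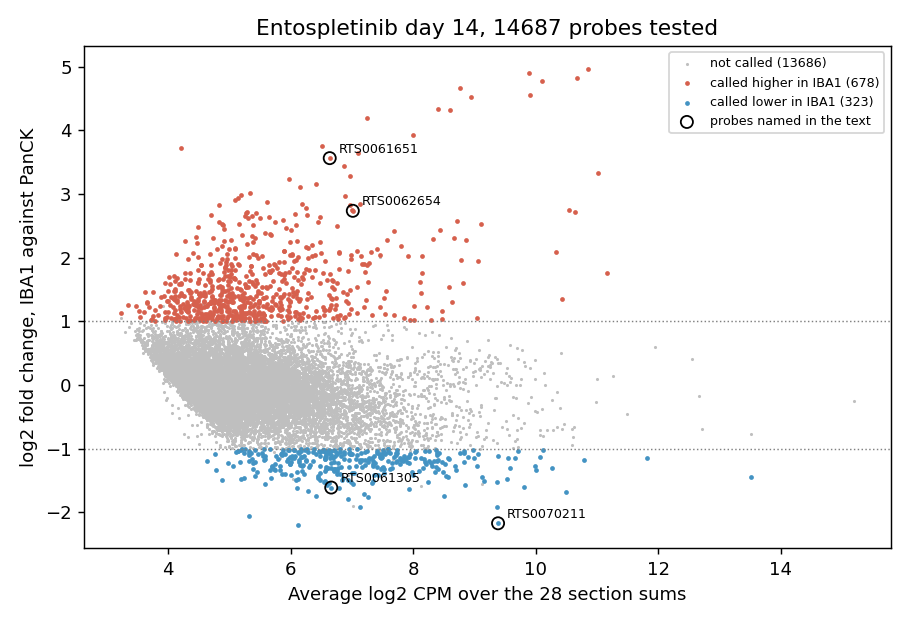
log2 fold change of IBA1 against PanCK in entospletinib day 14 (vertical axis) against the average log2 CPM over the 28 section sums (horizontal axis), with 1 point for each of the 14687 probes tested. Probes called higher (678) reach 4.97 and probes called lower (323) reach -2.20; circles mark the 4 probes named in the text, and dotted lines mark a log2 fold change of 1 in size.

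Probes with more counts were called more often, in both directions. Among the 9290 probes with a sum of 20 to 49 counts over the IBA1 segments, 1.79% were called higher and 0.721% lower. For the 1604 probes with 100 to 499 counts the shares were 11.9% and 8.98%. At 500 counts or more, 27 of 159 probes were higher and 20 were lower.

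The probe with the smallest adjusted p and the larger fold toward macrophages was RTS0061651. Its level in the 8 IBA1 segments ran from 132 to 324 CPM (counts scaled to 1000000 per segment) with a median of 208, on 15 to 49 counts. In the 8 PanCK segments it ran from 12.7 to 17.7 CPM with a median of 16.1. These PanCK levels lay below the lower quartile of all probes tested in the PanCK sums (22.9 CPM in E1, 18.2 CPM in E2). The part of background signal in them, and so in the fold, was not tested. The compartments did not overlap, the lowest IBA1 segment lying well above the highest PanCK segment. All 4 named probes were chosen on these same pairs, which favours such separation. Over section sums the level was 211 ± 41.0 CPM in IBA1 and 15.8 ± 1.55 CPM in PanCK (mean ± SD, n = 2 sections). The log2 fold change was 3.57 (SE 0.19, adjusted p = 2.45e-13, edgeR), and it was nearly equal in medulla (3.53) and cortex (3.60).

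RTS0062654 showed the same order. IBA1 segments had 115 to 425 CPM (median 221) and PanCK segments 25.9 to 43.7 CPM (median 29.5), again without overlap. The highest IBA1 level was in medullary ROI 021 of section E2 and the lowest in cortical ROI 023 of section E1. The log2 fold change was 2.74 (SE 0.17, adjusted p = 2.45e-13, edgeR), with 3.04 in medulla and 2.34 in cortex. This difference between regions did not pass the test (adjusted p = 0.906, edgeR).

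Of the probes lower in macrophage segments, RTS0070211 had the smallest adjusted p. It was abundant in tubules, with 739 to 2369 CPM (median 1003) in PanCK segments against 82.6 to 498 CPM (median 320) in IBA1 segments. The compartments did not overlap, but the sections stood apart: the medullary PanCK segments of E1 had 2131 and 2369 CPM and those of E2 had 831 and 826 CPM. In the section sums the PanCK level was 1792 CPM in E1 and 834 CPM in E2, and the IBA1 level was 459 and 206 CPM. The ratio of these sums was thus similar while the level changed. It varied between ROIs, from 1023 CPM in PanCK against 498 in IBA1 (cortical ROI 023 of E1) to 826 against 82.6 (medullary ROI 021 of E2). The log2 fold change was -2.17 (SE 0.21, adjusted p = 3.04e-09, edgeR), with -2.75 in medulla and -1.68 in cortex. This regional difference did not pass the test (adjusted p = 0.862, edgeR).

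RTS0061305 differed from the other three in that its compartments overlapped across ROIs. PanCK segments ranged from 39.9 to 308 CPM (median 215) and IBA1 segments from 12.8 to 171 CPM (median 68.4), and each IBA1 segment was below its own PanCK partner, as the rule for naming a probe required. The 2 cortical ROIs of section E1 were the lowest in both compartments. Its lowest IBA1 value rested on 1 count, and its highest IBA1 count was 26. The log2 fold change was -1.61 (SE 0.17, adjusted p = 5.30e-09, edgeR). This call was lost without the section block (adjusted p = 0.190) and by limma on the paired differences (adjusted p = 0.0553).

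**Figure D3:**
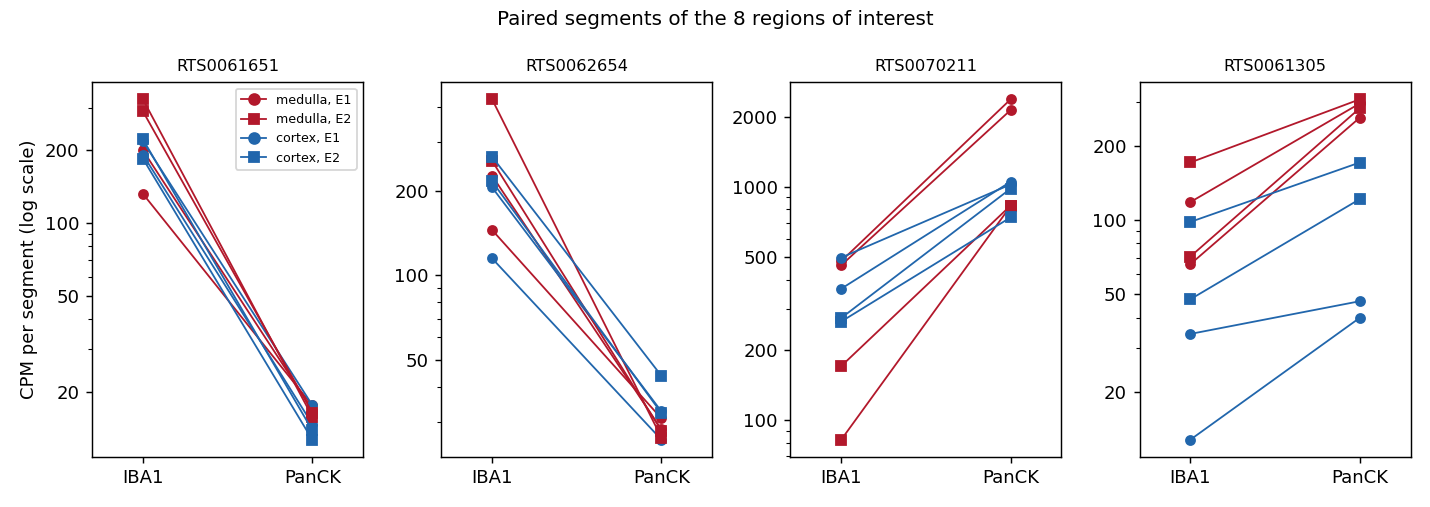
CPM per segment (log scale, a separate axis for each panel) of the 4 named probes, with each line joining the IBA1 and PanCK segment of an ROI, coloured by region and with the marker shape giving the section. RTS0061651 and RTS0062654 are higher in IBA1 and RTS0070211 and RTS0061305 lower in all 8 pairs; the PanCK levels of RTS0061651 stay between 12.7 and 17.7 CPM, while those of RTS0061305 spread from 39.9 to 308 CPM.

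Most called probes had the same sign in every pair, which the choice of the lists from these same segments favours. Of the 678 probes called higher, 464 had a positive difference of log2 CPM in 8 of 8 pairs and 161 in 7. Of the 323 called lower, 216 had a negative difference in 8 of 8 pairs and 69 in 7. Across all probes tested, 909 were higher and 579 lower in IBA1 in every pair, with plain totals as library sizes. With TMM library sizes (trimmed mean of M values) these became 601 and 1047, so the direction of that imbalance turned with the scaling.

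By pair, the median difference of the higher list was smallest in cortical ROI 023 of E1 (1.25) and largest in medullary ROI 021 of E2 (2.15). The lower list followed the same order at its ends, from -0.66 in ROI 023 of E1 to -1.68 in ROI 021 of E2. Medians over all probes tested lay between 0.02 and 0.19. These values describe the lists, since the same segments chose them.

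In terms of counts, the 678 probes took from 6.00% to 12.8% of an IBA1 segment (median 8.29%) and from 1.64% to 2.35% of a PanCK segment (median 2.00%). The 323 probes took 4.86% to 8.99% of an IBA1 segment and 7.87% to 20.5% of a PanCK segment. Tubule segments differed more among themselves in the second list than in the first. The 4 medullary PanCK segments held 16.1% to 20.5% of their counts in it, and the 4 cortical ones 7.87% to 13.1%.

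**Figure D4:**
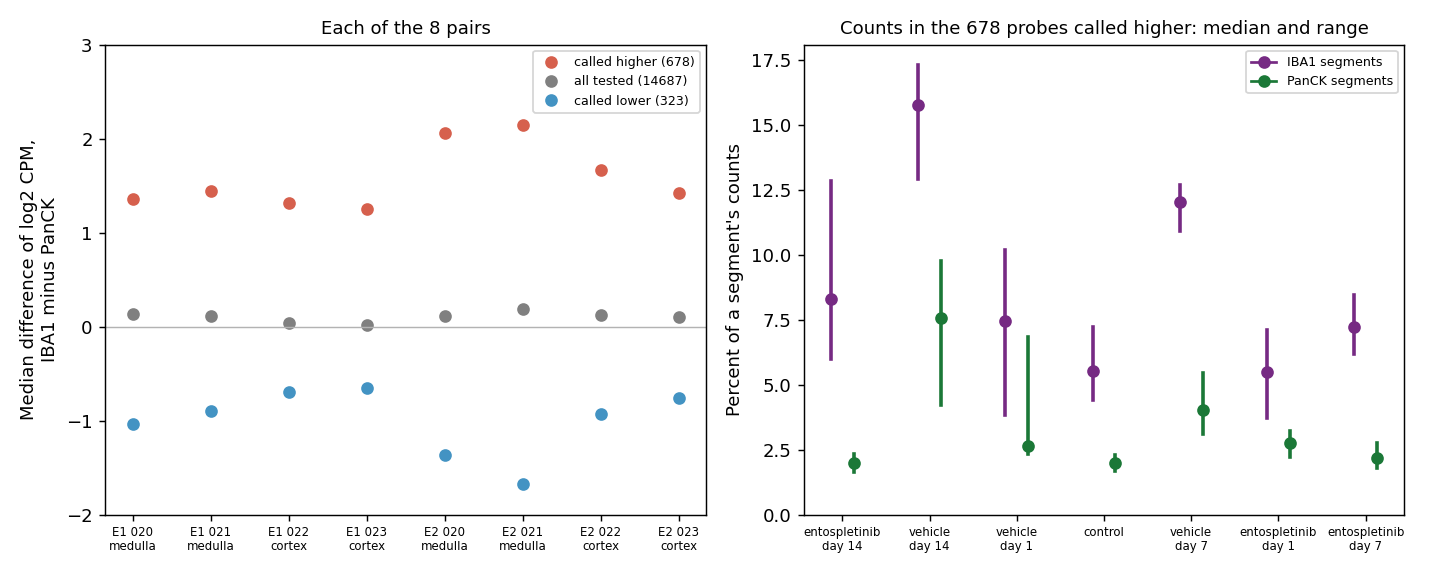
Left, the median difference of log2 CPM (IBA1 minus PanCK) in each of the 8 pairs for the probes called higher, for those called lower and for all probes tested; the higher list lies between 1.25 and 2.15 and the lower list between -1.68 and -0.66. Right, the percent of a segment's counts that fell on the 678 probes called higher, as median (point) and range (line) of the IBA1 and PanCK segments of each of the 7 groups; the IBA1 medians lie above the PanCK medians in every group.

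The 22 probes with a log2 fold change over 3 formed the top of the higher list. They took 1.21% to 3.03% of the counts of an IBA1 segment and 0.0673% to 0.125% of those of a PanCK segment, and 20 of them were positive in 8 of 8 pairs. The 10 probes over 4 held 0.875% to 2.18% of IBA1 counts and 0.0307% to 0.0606% of PanCK counts. Their median was 4.54 in section E1 and 4.61 in section E2, both close to their fitted median of 4.61. Their errors were larger than those of other probes, with a median standard error of 0.57.

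Between the sections, the folds of E2 were larger. The median of the higher list was 1.23 in E1 and 1.58 in E2, and 534 of 678 probes had the larger fold in E2. For the lower list the medians were -0.99 and -1.41, and 272 of 323 were further from 0 in E2. Within the lists, which these sections chose, 429 of 678 and 137 of 323 probes were past 1 in size in both sections. Pearson's r between the sections' log2 fold changes was 0.63 across the 14687 probes, which are not independent replicates.

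Whether macrophages and tubules differed more in medulla than in cortex was examined with sums kept apart by region. The median of the higher list was 1.52 in medulla and 1.26 in cortex, and that of the lower list was -1.44 and -0.99. In the medulla 739 probes (5.03%) were higher and 610 (4.15%) lower in IBA1, and in the cortex 379 (2.58%) were higher and 214 (1.46%) lower. The number of calls alone does not show a difference between regions, and the test of that difference called 6 probes (0.0409%; 802 at an unadjusted p under 0.05) and 0 with DESeq2 (530 at an unadjusted p under 0.05). Leaving out medullary ROI 020 or ROI 021 of section E2 also left 0 calls. The median standard error of a difference between regions was 0.52 on the log2 scale, so a difference of the size seen between the medians was not detectable for single probes. Of the higher list, 674 of 678 probes had the same sign in both regions, and of the lower list 318 of 323. The lists were chosen on sums that pooled these same segments, which favours equal signs.

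The comparison with vehicle addressed whether SYK inhibition altered what separates the compartments at the same day. In vehicle day 14, 396 probes (2.70%) were higher and 421 (2.87%) lower in IBA1. The 678 probes of the entospletinib list had a median log2 fold change of 0.88 there, against 0.02 over all probes. Of these 642 were positive, beside 53.0% of all probes tested. Called members numbered 288, which was 42.5% of the entospletinib list and 72.7% of the vehicle list. The lower list was closer in size, with a median of -1.08 and 317 of 323 negative, beside 47.0% of all probes tested. Its called members numbered 176, which was 54.5% of the entospletinib list and 41.8% of the vehicle list.

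The test of the difference itself called 373 probes between entospletinib day 14 and vehicle day 14. For 317 (2.16%) the compartment effect was more positive with entospletinib and for 56 (0.381%) more negative. The median difference was 1.12 for the 317 and -1.03 for the 56. Of the 317 probes, 178 belonged to the 678 probes called higher with entospletinib, whereas in vehicle 36 of them were called higher and 56 lower. Over all probes tested, 4.62% were called higher with entospletinib, and 2.70% higher and 2.87% lower in vehicle. Choosing the 317 probes on a more positive effect with entospletinib favours such a split. Opposite signs of the fitted fold in the treatments were found for 136 of the 317 and 38 of the 56, beside 4998 of the 14687 probes tested, and calls in opposite directions for 2 of the 317 and 0 of the 56. DESeq2 called 185 probes, of which 171 were among the 373, and plain totals called 720 more positive and 25 more negative.

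Levels of the 317 probes differed between the treatments mainly in the tubule segments. Their median level in PanCK, in log2 CPM after upper quartile scaling and averaged over sections, was 5.19 with entospletinib and 6.61 with vehicle, and in IBA1 it was 6.40 and 6.63. The median shift from vehicle to entospletinib was -1.36 in PanCK and -0.27 in IBA1, beside 0.18 and 0.10 over all probes tested. The PanCK shift was the larger in size for 279 of 317 probes, beside 8330 of 14687 over all probes tested. For the 56 probes the PanCK shift was 0.61 and the IBA1 shift -0.41, and the PanCK shift was the larger in size for 33. These levels are described without a test, in the same sums that chose both lists. Choosing probes on a positive difference of effects favours a lower PanCK or a higher IBA1 level with entospletinib, and a negative one the reverse.

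Several measures moved with this contrast. The IBA1 segments of vehicle day 14 held 378678 to 947255 counts, all above the 58579 to 220585 of entospletinib day 14, while PanCK segments held 588814 to 6418303. When every tubular sum was thinned to the total of its macrophage sum, 192 probes were called, 164 of them among the 373. The depth gap between the IBA1 segments was not thinned away, and its part in the result was not tested. Without section E2 of entospletinib day 14 the difference was called for 67 probes, without section E2 of vehicle day 14 for 142, and in cortical ROIs alone for 18 against 381 in medullary ROIs alone.

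**Figure D5:**
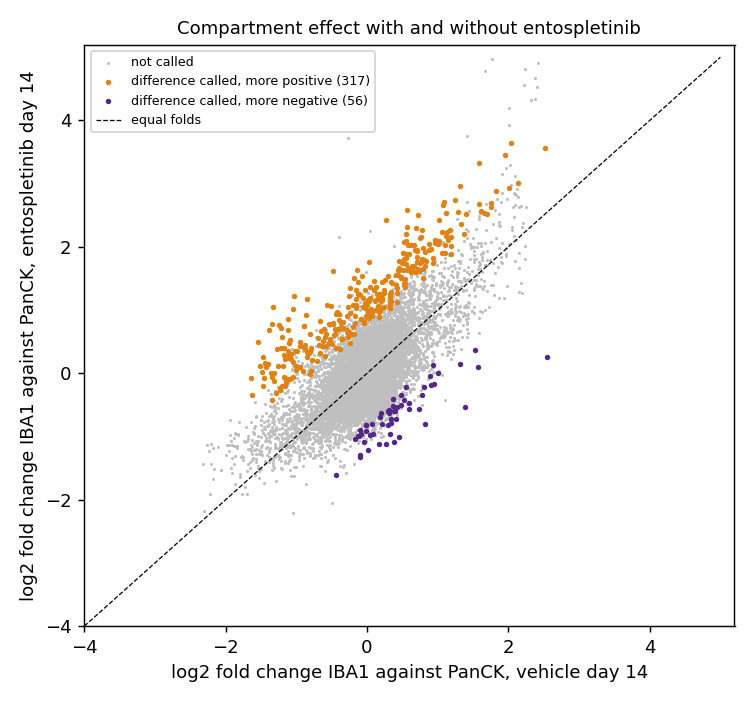
log2 fold change of IBA1 against PanCK in entospletinib day 14 (vertical axis) against that in vehicle day 14 (horizontal axis) for the 14687 probes tested, with the line of equal folds dashed. The 317 probes whose effect was more positive with entospletinib lie above the line and the 56 more negative ones below it; the probes past 4 on the vertical axis lie at or below 2.43 on the horizontal axis and were not called different.

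Among the named probes, RTS0062654 differed most between the treatments. Its PanCK level was 29.4 and 32.9 CPM in the 2 entospletinib sections and 155 and 204 CPM in the 2 vehicle sections, and its IBA1 level was 184 and 294 CPM against 383 and 428 CPM. Both compartments were higher with vehicle in both sections, the tubules by more. The log2 fold change was 1.25 in vehicle, and the difference of effects was 1.49 (SE 0.21, adjusted p = 5.09e-05, edgeR).

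For RTS0061651 the vehicle fold was 2.51 and the difference 1.05 (SE 0.22, adjusted p = 0.00603, edgeR). For RTS0061305 the vehicle fold was -0.44 and the difference -1.17 (SE 0.23, adjusted p = 0.00258, edgeR), the tubular level being 189 and 227 CPM with entospletinib and 36.4 and 71.8 CPM with vehicle. RTS0070211 was lower in macrophages by a similar factor in vehicle (-2.31), and its difference of 0.14 (SE 0.30) did not pass the test (adjusted p = 0.912, edgeR), although both of its levels were lower with vehicle.

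The 10 probes with folds over 4 had a median log2 fold change of 2.28 in vehicle day 14, 3.88 in vehicle day 1 and 3.55 in the control. They were chosen for their size with entospletinib, so a smaller value elsewhere follows from the choice. Against vehicle day 14 their median difference of effects was 2.31 with a median standard error of 0.70, and none was called (lowest adjusted p = 0.0747, edgeR).

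Against vehicle day 1 and the uninjured control, few differences in compartment effect were called. The difference from vehicle day 1 was called for 7 probes (0.0477%; 1273 at an unadjusted p under 0.05). Leaving out section E1 of vehicle day 1 raised this to 30, leaving out its section E2 left 0, and leaving out section E1 or E2 of entospletinib day 14 gave 60 and 3. The difference from control was called for 1 probe (0.00681%; 927 at an unadjusted p under 0.05) and for 0 by DESeq2 (543 at an unadjusted p under 0.05), and without section E1 of entospletinib day 14 it was called for 23. RTS0061305 was among the probes that differed from vehicle day 1 (adjusted p = 0.0228, edgeR), with folds of -1.61 and -0.14. Its fold with entospletinib was -1.81 in medulla and -1.24 in cortex. Each section of vehicle day 1 and of the control had fewer medullary than cortical ROIs, while entospletinib day 14 had equal numbers. The part of this region mix in the differences from both groups was not tested.

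In vehicle day 1, 364 probes (2.48%) were higher and 216 (1.47%) lower in IBA1, and in the control 153 (1.04%) were higher and 55 (0.374%) lower. The entospletinib day 14 higher list had medians of 0.92 in vehicle day 1 and 0.93 in the control, beside -0.12 and -0.11 over all probes. Of its 678 probes, 645 and 638 were positive, beside 38.0% and 40.1% of all probes tested. Called members numbered 299 (44.1% of the list and 82.1% of that group's list) in vehicle day 1 and 136 (20.1% and 88.9%) in the control. The lower list had medians of -0.83 and -0.65, with 316 and 310 of 323 probes negative, beside 62.0% and 59.9% of all probes tested. Of its members, 82 (25.4%) and 24 (7.43%) were called. The control IBA1 segments were the shallowest of these groups, with 16693 to 146173 counts.

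The share of counts on the lists was also taken in the other groups, whose segments gave no fold to the choice of the probes but did enter the spread behind their adjusted p. In 38 of 38 ROIs of the other 6 groups their share of counts was higher in the IBA1 than in the PanCK segment, and the share of the 323 probes was lower in the IBA1 segment in 38 of 38. The share of the 678 probes in PanCK segments was 4.20% to 9.77% in vehicle day 14, above the 1.64% to 2.35% of entospletinib day 14 without overlap, and 1.67% to 2.28% in the control. In IBA1 segments it was 12.9% to 17.3% in vehicle day 14, also above entospletinib day 14, and 4.41% to 7.21% in the control. The tubule segment left out for its depth, from ROI 023 of E1, held 1.66% of its 77621 counts in the 678 probes and 9.55% in the 323, close to the second PanCK segment of that ROI (1.90% and 8.24%) and unlike its IBA1 segment (6.00% and 5.30%).

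Pearson's r of log2 CPM between an IBA1 segment and the PanCK segment of its own ROI ran from 0.46 to 0.77 across the 14687 probes, and among the 8 possible pairings it ranked 1 for 3 IBA1 segments, 2 for 4 and 3 for 1. The lowest value belonged to the shallowest segment, ROI 020 of E2. The correlations were not corrected for depth, and probes are not independent replicates.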

How the data were processed

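The deposited files hold, per segment, the deduplicated UMI count of each probe, which the authors made with the GeoMx NGS Pipeline (version 3.1.1.5 per the file headers); the labels give another version, R 4.3.1 and build mm10. They also carry read totals and quality values, which were not used as measurements beyond depth. Probes absent from a file were counted as 0. The rule for the ROIs and all thresholds were chosen with earlier results of these data known.

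Counts were summed per section and compartment (28 sums; 56 with region), scaled by upper quartile and fitted in edgeR 4.0.16 (R 4.3.3) with section terms and a compartment effect per group, robust quasi-likelihood, 7 residual degrees of freedom, and Benjamini-Hochberg adjustment over all probes tested. The study itself tested each ROI as a replicate; ROIs of 2 mice share an animal, so p-values over ROIs would be too small. Moderation across probes added a median of 27.2 prior degrees of freedom. The spread behind each p was thus shared over groups and probes, and was not measured in the 2 sections of a group alone. For a difference of effects no fold was required. Paired differences used log2 CPM with a prior count of 2 and plain totals. With no gene names in the files, the named probes are the 2 higher and 2 lower with the smallest adjusted p among those called and of the same sign in all 8 pairs (ties by fold). The steps were tested on simulated data, where upper quartile factors shifted shallow single segments. The fit with the ROI block therefore used TMM, while the section sums kept upper quartile scaling. Deviations from the compartment means were correlated between segments of the same ROI (r of 0.10 to 0.35 in the 8 pairs). Differences between sections and regions were not taken out of these deviations, so the part of the ROI itself was not tested. The ROI block was fitted as an alternative, with DESeq2 1.42.0 and limma 3.58.1 among the others. Depth limited the IBA1 segments most (58579 to 220585 counts).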

Additional observations from a re-analysis of the deposited data

Results flagged for a closer look

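Of 21 sets of 8 values examined for a lone extreme, 2 held one, and chance gives about 1 in 20. The ratio of PanCK to IBA1 counts was 146 in ROI 020 of section E2, and the CPM of RTS0062654 in PanCK segments was 43.7 in ROI 023 of section E2; each was the highest of its 8 values and far from the next. Without that first pair the calls of the main comparison were 637 higher and 298 lower.

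The compartment effect of entospletinib day 14 differed from vehicle day 14 for 373 probes, from vehicle day 1 for 7 and from the uninjured control for 1, and between medulla and cortex for 6. Named probes among the first were RTS0061651 (difference 1.05 on the log2 scale), RTS0062654 (1.49) and RTS0061305 (-1.17). The tubular segment outside the comparison held 77621 counts.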

How the results depend on the processing

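Of 121 counts of calls recomputed under an alternative, 76 stayed within 1.5 times the reported one, among them 4 under other prior counts that could not change a sign, and 45 did not. For the main comparison (678 higher, 323 lower) the counts outside included 156 lower with plain totals, and 292 higher and 34 lower with a minimum sum of 100 (1763 probes tested). Others were 152 lower without the section as a replicate block, and 4 lower by limma on the 8 paired differences with plain totals. In cortex alone 439 were higher, and in medulla alone 614 were lower. With the ROI as a replicate block over the 16 segments and TMM factors, 646 were higher and 349 lower, p-values over ROIs of 2 mice being too small. Leaving out a section or an ROI pair gave 405 to 785 higher and 169 to 581 lower. The every-pair counts of 909 and 579 became 601 and 1047 with TMM.

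The difference from vehicle day 14 (373) was 745 with plain totals, 192 with thinned tubular sums, 2 without the replicate block (861 at an unadjusted p under 0.05), 185 with DESeq2 and 18 in cortex alone; leaving out a section gave 67 to 292. The difference from vehicle day 1 (7) was 14 with plain totals, 2 with thinning and 0 without the replicate block; leaving out a section gave 0 to 60. The difference from control (1) was 0 with TMM, a minimum sum of 100, thinning, no replicate block or DESeq2; leaving out a section gave 1 to 23. The medulla minus cortex difference (6) was 2 with a minimum sum of 100 or the group's sums alone, and 0 with thinning, no replicate block, DESeq2, or (chosen after seeing the data) without the 2 sections of under 200000 macrophage counts; leaving out a section or pair gave 0 to 10. The causes were not tested.

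Named probes kept their direction throughout: RTS0061651 3.30 to 3.93, RTS0062654 2.35 to 3.10, RTS0070211 -2.76 to -1.68 and RTS0061305 -1.81 to -1.25, the last losing its call in 2 of 24 alternatives and falling below the minimum sum of 100. Depth in the IBA1 segments limits low-abundance probes most.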
